A study of Homo sapiens with 16 samples.

Results

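Serine 2-phosphorylated RNA polymerase II (Pol2Ser2) was compared between DKO and HCT116 cells over every region of the deposited Pol2Ser2 table, which holds 236942 of the 1255311 regions in the 7 tables of the series. No region was chosen by its value. The series profiled CTCF, the cohesin subunits RAD21 and SMC1, acetylated histone H3 lysine 27 (H3K27Ac), and total, serine 5- and serine 2-phosphorylated polymerase by chromatin immunoprecipitation and sequencing (ChIP-seq), with 1 library per target in each line. HCT116 is a human colorectal carcinoma line. DKO, a derivative of HCT116 made by gene targeting, carries disruptions of DNMT1 and DNMT3B, the DNA methyltransferases that maintain and set most cytosine methylation in these cells, and grew in the same medium as HCT116. The disrupted DNMT1 allele is known to leave a shortened protein, so that the line is not a complete null.

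The largest subunit of RNA polymerase II ends in a tail of repeated heptapeptides. Serine 5 of the repeat is phosphorylated as the enzyme starts a gene, and serine 2 gains phosphate as it elongates, so serine 2 signal typically lies along gene bodies and peaks towards and beyond their ends, where the mark helps recruit the 3′ end processing machinery. Series of neighbouring Pol2Ser2 regions are therefore described here as runs, and the other targets are given beside them. The libraries titled total polymerase carry an antibody label that names Pol2Ser5; they are called total polymerase here after their titles. No genes were assigned to regions, since no annotation of the files' build, hg19, was used here, and the disruption of DNMT1 and DNMT3B was not checked in the libraries.

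The deposited values were read densities per kb, normalised by the authors, and the log2 ratio M of DKO over HCT116. Each region was counted in a window of 2 kb around its middle, whatever its own length. The reads behind each value, recovered from M and the mean log2 density A, had a median of 24 for DKO (5th to 95th percentiles 5 to 81) and 34 for HCT116 (11 to 86). No read fell in 1184 windows in DKO and in 55 windows in HCT116. As each line had 1 library, no test between the lines was made and nothing checks replicates; intervals cover counting error, or the spread over regions, only. Windows were shared widely, as 72.8% of regions had another region's middle within 2 kb.

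The authors' scaling was a line in A rather than a single factor. At the median level, a density of 14.5, equal deposited densities corresponded to 0.628 DKO reads for each HCT116 read. At a density of 6.32 the same ratio was 0.477, and at 72.7 it was 1.07. Above a density of 58.8, reached by 1.55% of regions, equal densities thus stood for more DKO than HCT116 reads. All values below are on the deposited scale unless constant centring is named, which replaces the line by 1 factor that sets the median of regions called in both lines to 0. It shifted the overall median by -0.24 on the log2 scale.

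On the deposited scale more Pol2Ser2 regions were higher in DKO than in HCT116, and under constant centring fewer were. Those at least 2-fold higher in DKO numbered 44094 (18.6% of all), and those as much higher in HCT116 25769 (10.9%). At a 4-fold threshold the counts were 9300 (3.93%) and 5356 (2.26%). The median M was 0.17 (95% interval over regions 0.17 to 0.17). The constant factor left 28083 regions (11.9%) past 2-fold towards DKO and 43305 (18.3%) towards HCT116, so the direction of this balance turned with the scaling.

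**Figure D1:**
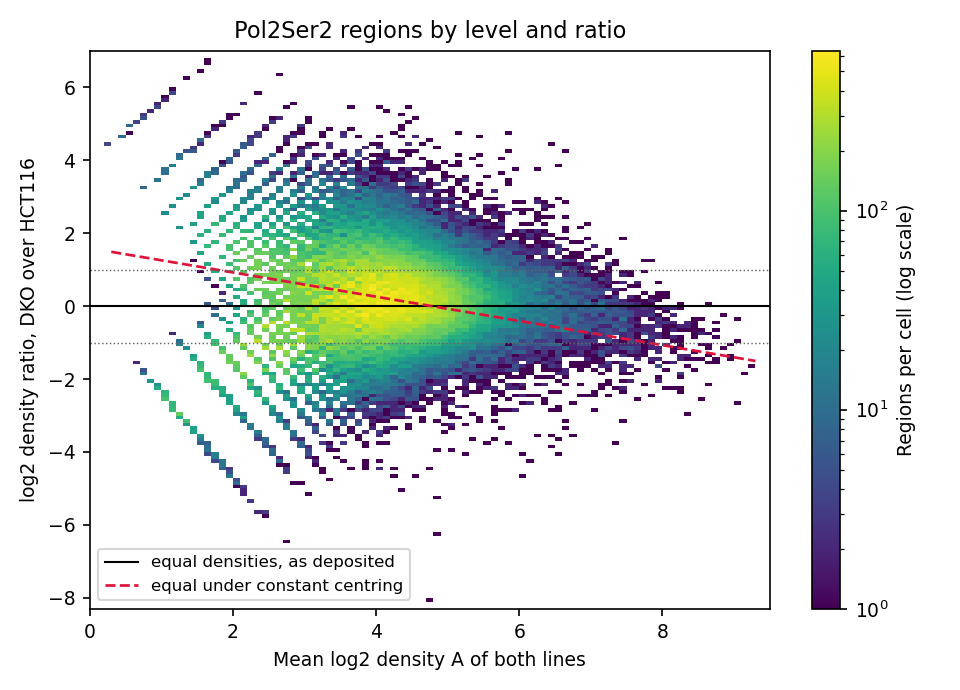
Number of Pol2Ser2 regions by mean log2 density A of both lines (x axis) and log2 density ratio of DKO over HCT116 (y axis), on a log colour scale, with dotted lines at 2-fold. The dashed line, where the lines are equal under constant centring, lies above 0 at low A and below 0 at high A, so weak regions read higher in DKO and strong regions lower in DKO on the deposited scale than under constant centring.

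The authors marked each region by the line or lines in which its peak was called. Most regions were called in only 1 line: 117975 (49.8%) in DKO only, 75565 (31.9%) in HCT116 only, and 43402 (18.3%) in both. These calls come from the libraries that give M, so the values by call are a description. Regions called in DKO only had the same median of 26 reads in either line, a median M of 0.72, and 35.1% of them were at least 2-fold higher in DKO. Regions called in HCT116 only had 13 reads in DKO and 36 in HCT116 with a median M of -0.61, and 30.2% of them were at least 2-fold higher in HCT116. A peak called in a single line was thus often no 2-fold difference, and for 16544 DKO-only regions M lay below 0, as it lay above 0 for 12870 HCT116-only regions. Regions called in both lines were deeper, with 47 reads in DKO and 60 in HCT116. Their median M was 0.01, with 2400 past 2-fold towards DKO and 2532 towards HCT116. This near balance depends on where the scaling sets equal densities, and constant centring puts the median of these same regions at 0. It is thus no separate result about the lines.

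Long Pol2Ser2 regions were lower in DKO on the deposited scale and higher in DKO under constant centring. The 261 regions of 10 kb or more had a median M of -0.40 (interval -0.54 to -0.27), with 23 regions (8.81%) past 2-fold towards DKO and 79 (30.3%) towards HCT116. The 1336 regions of 5 to 10 kb had a median M of -0.20, and those of 2 to 5 kb 0.05. Shorter regions lay above 0, with a median M of 0.20 at 1 to 2 kb, 0.24 at 0.5 to 1 kb and 0.17 under 0.5 kb. This order rested on the scaling: under constant centring the medians were 0.31 at 10 kb or more, 0.37 at 5 to 10 kb and -0.14 under 0.5 kb. Raw reads in the longest class had a median of 222 in either line, against 20 for DKO and 30 for HCT116 under 0.5 kb, so depth moved with length.

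**Figure D2:**
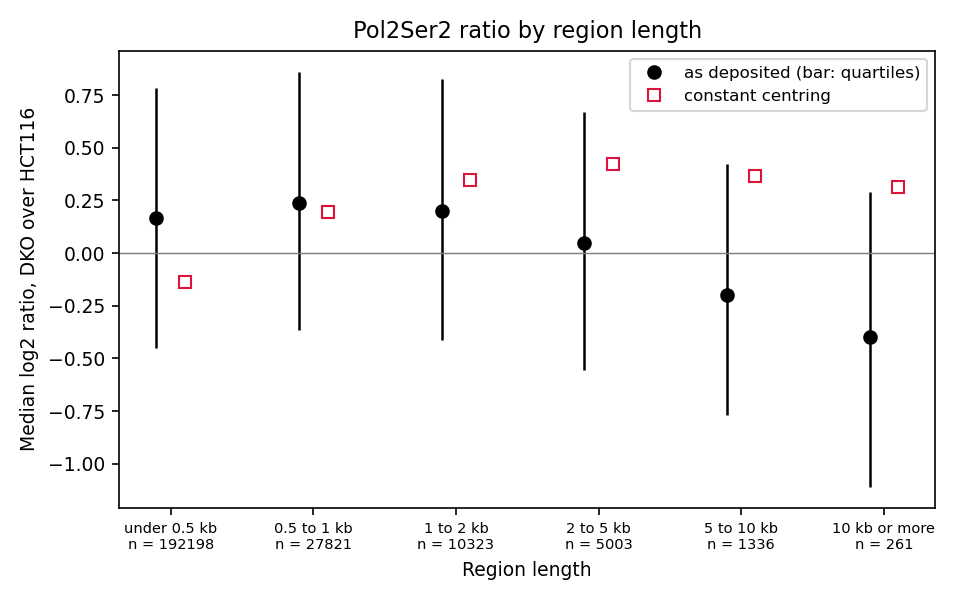
Median log2 ratio of DKO over HCT116 (y axis) by Pol2Ser2 region length (x axis), as deposited (circles, bars spanning the quartiles) and under constant centring (squares). The circles fall to -0.40 at 10 kb or more, where the square is at 0.31.

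Within a length class the regions called in 1 line spread widely from those called in both. Among regions of 2 to 5 kb, the 310 called in DKO only had a median M of 2.39, from medians of 122.5 DKO reads and 32 HCT116 reads. The 86 called in HCT116 only had a median M of -2.98, from 10.5 reads in DKO and 126 in HCT116. The 4607 called in both had -0.01. Under 0.5 kb the corresponding medians were smaller in size, at 0.67 for DKO only and -0.58 for HCT116 only. The calls come from the libraries that give M, so this contrast between long and short regions is a description.

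By level, the spread of M narrowed as density rose. In the lowest quartile of A (density up to 9.45), 25.6% of regions were past 2-fold towards DKO and 21.7% towards HCT116, from medians of 9 reads in DKO and 18 in HCT116. In the highest quartile (density from 21.5), the shares were 11.8% and 5.18%, from 54 reads in DKO and 62 in HCT116. The medians of M were 0.10, 0.17, 0.22 and 0.15 from the lowest quartile to the highest, and -0.53, -0.22, 0.004 and 0.22 under constant centring. Regions called in both lines made up 0.642% of the lowest quartile and 50.9% of the highest.

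Chromosomes differed in their Pol2Ser2 ratio, and their order changed in part with the scaling. Median M was highest on chromosomes 22 (0.47), 19 (0.44), X (0.44) and 21 (0.42), and lowest on chromosomes 8 (-0.07) and 13 (-0.003). On X, 30.4% of regions were past 2-fold towards DKO and 8.00% towards HCT116, while on chromosome 19 the shares were 25.0% and 4.23%. Chromosome 4 had the highest share higher in HCT116, 17.9%, with 18.3% higher in DKO. Under constant centring X was nearly even, at 16.0% towards DKO and 15.3% towards HCT116 with a median of 0.06, while chromosome 19 had 19.3% and 6.44%. Chromosome 4 then had 10.3% towards DKO and 28.4% towards HCT116.

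Of 1168 windows of 2 Mb with at least 30 regions, 173 had a median M more than 0.5 above 0, and 104 more than 0.5 below it. The windows named here were picked as the extremes of these medians, so their size is in part due to that choice. The window at 106 to 108 Mb of chromosome 14 had a median M of 2.49 over 88 regions, from medians of 27 DKO reads and 8 HCT116 reads. There total polymerase (2.41), Pol2Ser5 (2.00) and CTCF (1.24) were also higher in DKO, whereas H3K27Ac was at -0.24 and RAD21 at 0.33. At 150 to 152 Mb of X the median was 2.16 over 78 regions, with 20 reads in DKO and 8 in HCT116. The polymerase forms moved together there too, with total polymerase at 2.16 and Pol2Ser5 at 1.41.

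The lowest windows were picked in the same way. At 104 to 106 Mb of chromosome 3 the median M was -2.31 over 149 regions, from 4 reads in DKO and 43 in HCT116, with total polymerase at -1.97, Pol2Ser5 at -2.33 and H3K27Ac at -1.16. At 12 to 14 Mb of chromosome 9 it was -2.31 over 46 regions, from 4 reads in DKO and 45.5 in HCT116. At 4 to 6 Mb of chromosome 11, the 254 regions had a median M of -1.86, with Pol2Ser5 at -1.95, but H3K27Ac there was at 0.14 and CTCF at 0.05. In the 6 lowest windows the RAD21 medians lay between -0.23 and 0.37. Longer segments were taken on chromosomes 13 and 20 only, and their shifts are not compared in size with those of the extreme windows. At 48 to 54 Mb of chromosome 13 the 475 regions had a median M of -0.69 (12 reads in DKO, 31 in HCT116). At 42 to 48 Mb of chromosome 20 the 938 regions had 0.61 (36 reads in each line).

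Neighbouring regions had similar ratios well beyond a shared window. Between adjacent regions 2 to 3 kb apart, which share no window, the Spearman correlation of M was 0.54 over 22717 pairs. It was 0.38 at 5 to 10 kb and 0.13 beyond 50 kb. Where both neighbours were past 2-fold, 95.7% of pairs at 2 to 3 kb pointed the same way, 86.2% at 5 to 10 kb and 62.1% beyond 50 kb. Of all regions past 2-fold, 63.1% were higher in DKO, so unrelated regions would also often point the same way. The share beyond 50 kb is therefore not read as agreement between neighbours. The pairs share the same 2 libraries, so these correlations describe them and carry no test.

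Regions with gaps of at most 5 kb were joined into runs. There were 10666 runs of at least 5 regions, which held 171402 regions (72.3%), with a median of 10 regions and a median span of 15.0 kb. The value of a run is the median M of its regions. On the deposited scale more runs were higher in DKO, 1454 (13.6%) at least 2-fold, than in HCT116, 550 (5.16%). At 4-fold the counts were 341 (3.2%) and 103 (0.966%). Under constant centring the runs were even, with 998 higher in DKO and 1008 higher in HCT116.

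Most runs past 2-fold had all their regions on the same side of 0, and fewer had all of them past 2-fold. Of the 1454 runs higher in DKO, 1163 (80.0%) had every region above 0, and of the 550 higher in HCT116, 382 (69.5%) had every region below 0, where 26.1% of all runs had every region on 1 side. Every region was past 2-fold in 393 of the runs higher in DKO and in 97 of those higher in HCT116. Runs were picked here by their median and neighbours often share a window, so these counts are a description. Of the runs higher in DKO, 931 (64.0%) held no region called in both lines, against 265 (48.2%) of those higher in HCT116. The share over all runs was not counted here, and the calls come from the libraries that give M. The median span was 12.0 kb for runs higher in DKO and 15.4 kb for runs higher in HCT116. The share of runs higher in DKO was 19.0% under 10 kb, 10.1% at 20 to 50 kb and 3.5% at 100 kb or more. The share higher in HCT116 was 4.71%, 5.27% and 9% in those classes, and in the longest class that was 18 runs of 200, with 7 higher in DKO; under constant centring the longest class had 8 runs higher in DKO and 22 higher in HCT116.

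**Figure D3:**
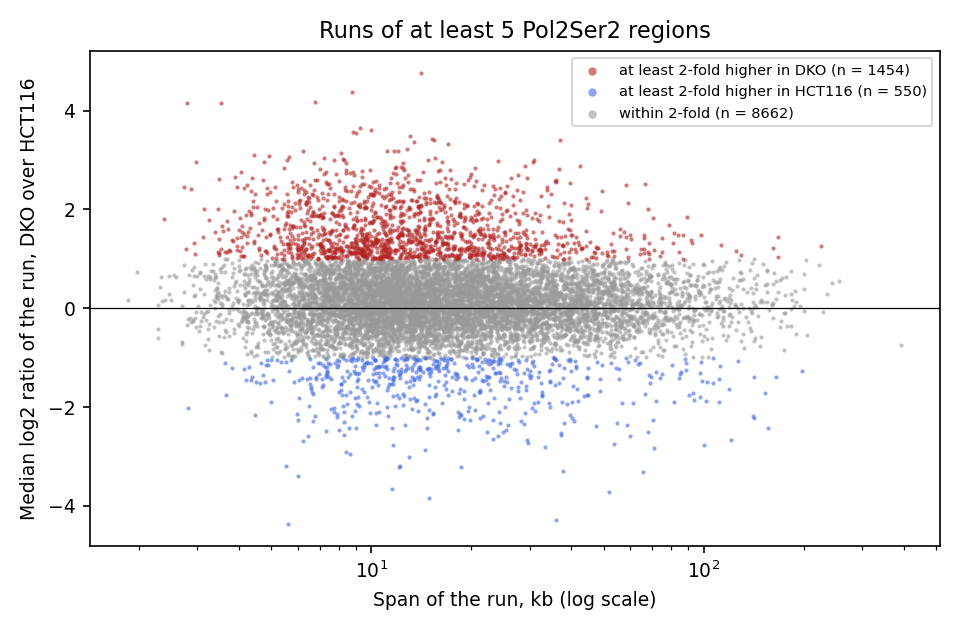
Median log2 ratio of DKO over HCT116 (deposited scale, y axis) against span in kb (x axis, log scale) for 10666 runs of at least 5 Pol2Ser2 regions, 1 point per run. The 1454 runs at least 2-fold higher in DKO lie mostly at short spans, and 25 of the 200 runs of 100 kb or more lie past 2-fold in either direction.

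The highest run lay at chrX:151082170-151096315 (hg19), with 9 regions and a median M of 4.76. All 9 were called in DKO only. Summed over windows that do not overlap, it held 302 reads in DKO and 29 in HCT116. Total polymerase there was at 5.82, Pol2Ser5 at 4.18 and H3K27Ac at 2.18, so the acetylated mark and both other polymerase profiles were higher in DKO as well.

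The next runs were at chr1:175067599-175076343, with a median M of 4.38 over 6 regions (315 reads in DKO, 25 in HCT116), and at chr21:10597280-10604042, with 4.17 over 5 regions (265 reads in DKO, 34 in HCT116). H3K27Ac was at 2.75 at the chromosome 1 run and at 3.94 at the chromosome 21 run. Both thus carried more acetylated histone in DKO. The other 7 of the 10 highest runs had a median M between 3.48 and 4.16. They included chr10:1193355-1202595 (325 reads in DKO, 59 in HCT116), and, on chromosome 14, chr14:106135346-106148419 and chr14:106916071-106924878, both in the 2 Mb window with the highest median. Some strong runs had few regions of other targets: at chr7:156187891-156191435, with a median M of 4.16, no H3K27Ac or Pol2Ser5 region was present and total polymerase (2 regions) was at 1.06, and it held 65 reads in DKO and 9 in HCT116. The remaining runs, chrX:49371998-49374783, chr2:132079070-132089048 and chr2:838153-847153, had no H3K27Ac or CTCF region either. Taken as the ratio of summed densities in place of the median, chr2:838153-847153 was at 2.09, against a median of 3.54, and the highest run on X at 3.93.

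Among the lowest runs, the 1 with most regions lay at chr4:11395595-11461457. It spanned 65.9 kb with 55 regions, all called in HCT116 only and all at least 2-fold lower in DKO, with a median M of -3.32. Single windows held between 0 and 9 reads in DKO, and between 34 and 392 in HCT116. The lines did not overlap in any window. Total polymerase was at -3.10 over 33 regions, Pol2Ser5 at -3.65 over 41 and H3K27Ac at -1.92 over 9, while CTCF was at 0.08 over 8. RAD21 was at -1.59 over 10 regions and SMC1 at -0.85 over 7.

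A pair of neighbouring runs on chromosome 9 was also among the lowest. The run at chr9:21541828-21593702 had a median M of -3.71 over 33 regions, with 99 reads in DKO and 2408 in HCT116. The run just below it, chr9:21498895-21536675, had -3.29 over 8 regions, with 31 reads in DKO and 1474 in HCT116. In both, Pol2Ser5 was low as well: it was at -3.53 in the first and -2.70 in the other. RAD21 was at -1.55 in the first and -1.93 in the other, and SMC1 at -1.45 and -1.40. CTCF, with 2 regions in each, was at -0.07 and -1.13. The run at chr6:145243428-145254963 held 1 read in DKO and 376 in HCT116 (median M -3.65), with H3K27Ac at -4.05, RAD21 at -1.48 and SMC1 at -0.35. In the run chrX:28515615-28521217 DKO had 0 reads and HCT116 194. Its median M of -4.36 rests on the 1 added to each count, so its rank among the lowest runs is not exact. That limit also bears on the chromosome 6 run, where 4 of 7 regions had 0 DKO reads. It bears as well on chr2:224365158-224380090, where 5 of 9 regions had 0 DKO reads. The remaining low runs were chr2:224365158-224380090 (-3.83), chr12:16514413-16520430 (-3.39), chr11:121867425-121885989 (-3.22) and chr4:104462482-104474587 (-3.21), and each had between 10 and 21 reads in DKO and between 97 and 440 in HCT116. Summed densities gave -1.97 for the chromosome 2 run and -2.11 for the chromosome 12 run, and -5.12 for chr9:21498895-21536675 and -4.78 for chr6:145243428-145254963.

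The run at chr20:31374004-31410070 (28 regions, median M -4.28, but -0.97 from summed densities) was not low throughout. Its first 16 regions, chr20:31374004-31392574, held 0 reads in DKO in every window, against 45 to 79 in HCT116 (median 56.5). In the 25 kb above this stretch, DKO windows held 10 to 66 reads (median 41) and HCT116 windows 25 to 126 (median 35), with a median M of -0.05. In the 25 kb below it, DKO windows held 16 to 37 reads (median 28) and HCT116 windows 29 to 52 (median 40), with a median M of 0.16. DKO signal was thus at 0 over 18.6 kb between flanks where both lines had reads. As 16 of the 28 regions had 0 DKO reads, the median M of the run rests on the 1 added to each count, and its rank is not exact. The only other series of at least 5 successive regions with 0 DKO reads held 9 regions over chrX:28515615-29465426, of which 7 make up the run on X without DKO reads, with 15 to 116 reads in HCT116, and no such series was found for HCT116. Pol2Ser5 regions in the run were at -5.16 (13 regions) and CTCF at -5.79 (4 regions), while total polymerase was at -0.34 (10 regions) over the whole run. DNMT3B, disrupted in DKO, lies on chromosome 20, but whether this stretch is part of it was not determined.

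**Figure D4:**
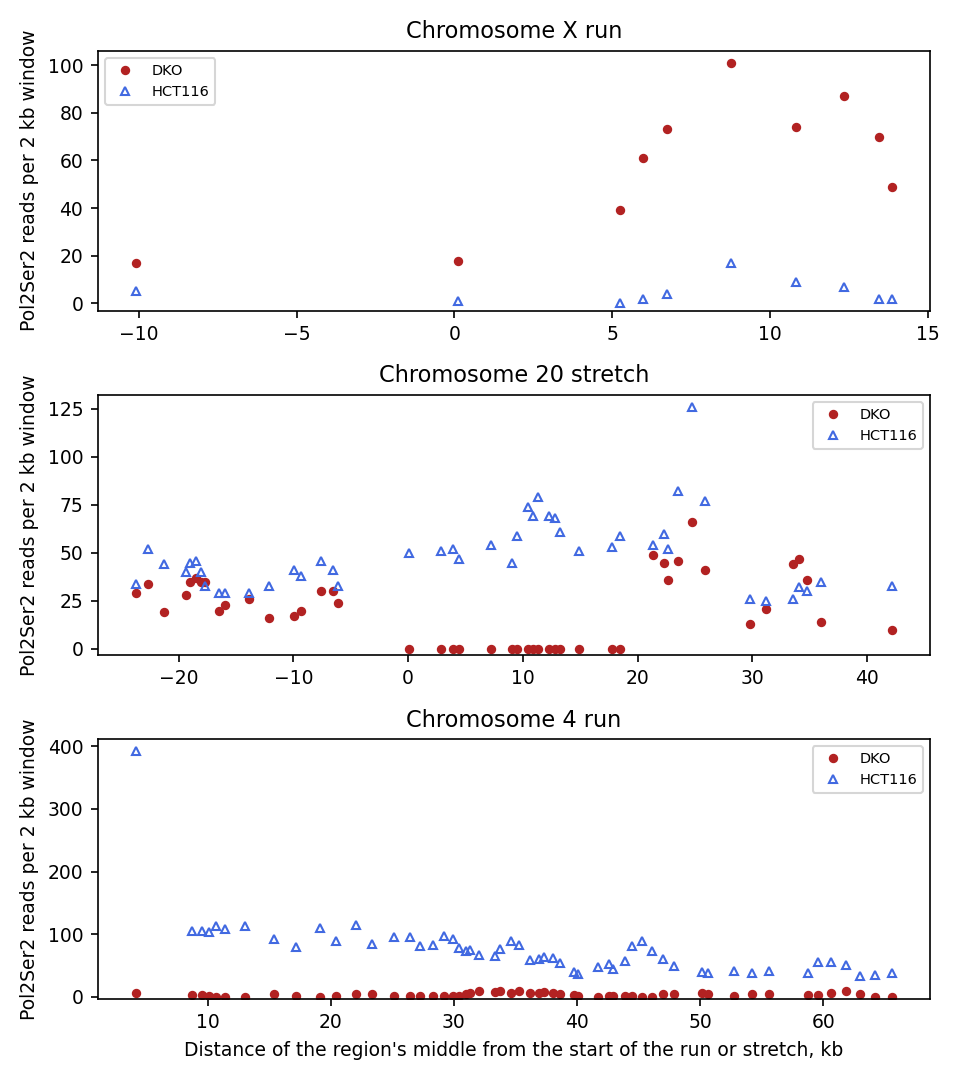
Pol2Ser2 reads per 2 kb window (y axis) in DKO (filled circles) and HCT116 (open triangles) against distance in kb from the start of the highest run on chromosome X, of the chromosome 20 stretch without DKO reads, and of the run on chromosome 4. DKO is above HCT116 throughout the X run, at 0 in all 16 windows of the chromosome 20 stretch with neighbours on both sides at 10 or more reads, and at 9 reads or fewer in the chromosome 4 run, where HCT116 has 34 to 392.

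The longest run, chr16:89279944-89672491, spanned 392.5 kb with 326 regions and was also the deepest, with 10414 reads in DKO and 14685 in HCT116. Its median M of -0.75 joined stretches that differed. The first 50 kb had a median M of 0.16. From 50 to 300 kb the medians of the 50 kb steps lay between -0.77 and -0.97. Past 300 kb they were 0.59 and 0.67, so a stretch lower in DKO lay between one near equal and one higher in DKO. H3K27Ac over the run was at 0.40 and CTCF at 0.85, while total polymerase (-0.58) and Pol2Ser5 (-0.68) were lower in DKO like Ser2.

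Most of the other long or deep runs had a median M above 0, but on the deposited scale only chr19:1101408-1326090 was past 2-fold. At chr19:1101408-1326090 the median M was 1.27 over 99 regions, with 8592 reads in DKO and 4701 in HCT116, and at chr1:834652-1038178 it was 0.98 over 97 regions, with 7937 reads in DKO and 3991 in HCT116. The runs chr1:1126603-1381775 and chr20:62473177-62716590 had 0.55 and 0.51. At chr17:79473317-79707901 it was 0.29, and at chr17:75275678-75503570 it was -0.07 as deposited and 0.02 under constant centring. Summed densities gave 0.72 for the chromosome 19 run, 0.31 for chr1:1126603-1381775 and 0.06 for chr17:79473317-79707901. At the chromosome 19 run total polymerase was at 1.49, Pol2Ser5 at 0.89 and H3K27Ac at 0.38. Some runs held both directions: 154 had at least 3 regions past 2-fold each way, among them chr16:1115248-1276988 (49 regions higher in DKO, 11 higher in HCT116), which was picked after its values were seen.

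Among single regions at or above the table's median density, 4 of the 5 highest ratios came from windows with no HCT116 read. The region chrX:151087296-151087571, inside the highest run, had 39 DKO reads and 0 HCT116 reads, and was at least 34.3-fold higher in DKO against a floor of 3 reads, with an exact lower limit of 4.73 for M. Its M was 6.72 as deposited and 5.69 under constant centring, both set in part by the 1 added to each count. The region chr14:106027642-106028053 had 38 DKO reads and 0 HCT116 reads (at least 33.6-fold higher at that floor, exact lower limit of M 4.70). At chr19:36801087-36801256 there were 31 reads in DKO and 0 in HCT116 (a fold of 28.3 or more at that floor, exact lower limit of M 4.44), and the region overlapped no region of any other target. The region chr19:58600934-58602141, with 77 reads in DKO and 1 in HCT116, had an M of 6.36 (exact 95% counting interval 4.82 to 12.66). The last of the 5, chr14:19887017-19887314, had 25 DKO reads and 0 HCT116 reads, and an overlapping CTCF region was at 4.63.

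The lowest region lay at chr9:21510851-21536675, where DKO had 2 reads and HCT116 995, an M of -8.01 (-11.64 to -6.73). The region chr4:75239511-75258471, 19.0 kb long, had 5 reads in DKO and 591 in HCT116, an M of -6.30 (-8.19 to -5.33), and Pol2Ser5 and H3K27Ac there were at -5.55 and -2.59. At chr6:145249901-145253472 DKO had 0 reads and HCT116 178 (at least 28.8-fold lower in DKO at a floor of 3 DKO reads, exact upper limit of M -4.54). The other two, chrX:28518017-28519715 and chr4:11406058-11406505, had 0 DKO reads with 116 and 113 HCT116 reads and lie in runs described above. These lowest regions were thus low for the other polymerase forms as well, while CTCF was at -0.55 at chr9:21510851-21536675 and 0.10 at chr4:75239511-75258471. RAD21 and SMC1 were at -2.48 and -2.10 at the chromosome 9 region, and at 1.01 and -0.05 at chr4:75239511-75258471. At the chromosome 6 region they were at 0.30 and -0.31.

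The deepest regions showed how the line in A acts on strong signal; they were chosen after their values were seen. The region chr17:41399610-41401245 had 1330 reads in DKO and 800 in HCT116, with a deposited M of -0.31 and 1.10 under constant centring. At chr22:50958955-50971292 there were 1159 reads in DKO and 710 in HCT116, with M at -0.27 as deposited and 1.07 under constant centring. The direction of these 2 regions turned with the scaling. A further deep region, chr19:2246009-2254583, had 1152 DKO reads and 594 HCT116 reads, with M at 0.02 and 1.32. Where HCT116 was deepest, chr17:57915067-57926637 had 594 reads in DKO and 1816 in HCT116, with M at -2.66 as deposited and -1.24 under constant centring. Total polymerase there was at -2.45, while Pol2Ser5 was at 1.01 and H3K27Ac at 2.37. The longest region, chr6:151649354-151684287 (34.9 kb), had 69 reads in DKO and 583 in HCT116 in its middle window, an M of -3.32.

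Pol2Ser2 regions that lay on regions of another target had higher ratios. Of all Pol2Ser2 regions, 30.1% shared at least 1 bp with an H3K27Ac region, and these had a median M of 0.42, against 0.05 for those off it. With CTCF, 20.5% overlapped, at 0.45 and 0.09 without. For RAD21 the medians were 0.42 and 0.09, and for SMC1 0.42 and 0.11. The difference between regions on and off a target was smaller for the polymerase forms themselves, 0.26 against 0.10 with total polymerase and 0.26 against 0.13 with Pol2Ser5. Depth moved with overlap: the medians were 38 DKO reads and 40 HCT116 reads on H3K27Ac, and 20 DKO reads and 31 HCT116 reads off it. Constant centring widened the difference, to 0.56 for H3K27Ac, 0.55 for CTCF and 0.44 for total polymerase.

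The ratio was also higher at regions on more targets. The 98541 regions on none of the 6 other targets had a median M of 0.05, those on 3 had 0.29, and the 20251 on all 6 had 0.50. Under constant centring the medians were -0.34, 0.18 and 0.51. Regions on all 6 were at least 2-fold higher in DKO in 26.2% of cases, against 16.9% of those on none.

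The other polymerase forms followed the Pol2Ser2 ratio, and the remaining targets did so less. At Pol2Ser2 regions at least 2-fold higher in DKO, the median M of overlapping total polymerase regions was 1.28, of Pol2Ser5 0.81, of CTCF 0.61, of SMC1 0.27, of H3K27Ac 0.19 and of RAD21 0.03. At regions within 0.5 of equal on the log2 scale, the medians were 0.25, 0.04, 0.25, 0.01, -0.04 and -0.17 in that order. At regions at least 2-fold higher in HCT116, total polymerase was at -1.02, Pol2Ser5 at -0.98 and H3K27Ac at -0.62, while CTCF was at 0.01 and RAD21 at -0.14. H3K27Ac thus lay further from its value at near-equal regions on the side higher in HCT116. These medians cover overlapping regions only, and their share differed by class. H3K27Ac overlapped 41.1% of regions higher in DKO and 19.2% of those higher in HCT116. For CTCF the shares were 27.9% and 10.4%, for total polymerase 45.3% and 32.1%, and for Pol2Ser5 32.8% and 22.3%. Each table was normalised on its own, so the medians of different targets are compared by their course over these classes and not by level.

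The same was counted over whole runs, each share being of the runs that held regions of that target. Of the runs higher in DKO with total polymerase regions, 73.9% had a median for total polymerase at least 2-fold higher in DKO, and 48.7% of those with Pol2Ser5 did so for that form. For CTCF it was 31.6% and for H3K27Ac 19.3%. In runs within 0.5 of equal the shares were 3.32% for total polymerase, 3.39% for Pol2Ser5, 8.74% for CTCF and 4.26% for H3K27Ac. Of the 550 runs higher in HCT116, 515 held total polymerase regions, 438 Pol2Ser5, 366 H3K27Ac and 346 CTCF. Among these, 64.3% were at least 2-fold higher in HCT116 for total polymerase, 71.5% for Pol2Ser5, 43.2% for H3K27Ac and 14.5% for CTCF. Runs near equal with regions of the target gave 1.40%, 6.61%, 5.79% and 2.94% in that order.

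The ratio was also followed along runs with a mark of active promoters at 1 end. A marked end lay within 2 kb of an H3K27Ac region that overlapped a Pol2Ser5 region, both called in both lines, and 2499 of 7696 runs of at least 10 kb had such a mark at only 1 end. Cut into 5 equal parts from the marked end, these runs had a median M of 0.22, 0.05, 0.02, 0.05 and 0.15. Serine 2 was thus highest relative to HCT116 next to the mark, and lower inside the run. The marked end was chosen by H3K27Ac, and over the whole table Pol2Ser2 regions on H3K27Ac had a median M of 0.42, against 0.05 off it. Place along the run and overlap with H3K27Ac cannot be told apart here, so the course is a description. Within runs, the middle part minus the first had a median of -0.21 (2372 runs, 62.1% below 0), and the last minus the first -0.10.

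The course was steeper in the 837 runs with no acetylated region beyond their middle. These runs were chosen to have H3K27Ac near the marked end and none in the far part, so the steeper course is not separate from that choice. Their parts had a median M of 0.11, -0.19, -0.24, -0.16 and -0.08, and the middle minus the first was -0.33 (780 runs, 69.0% below 0). Under constant centring that difference was -0.43. In reads, the first part had a median of 29 in DKO and 41 in HCT116, and the middle part 23 in DKO and 42 in HCT116, so the level in HCT116 was nearly flat where that in DKO was lower.

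**Figure D5:**
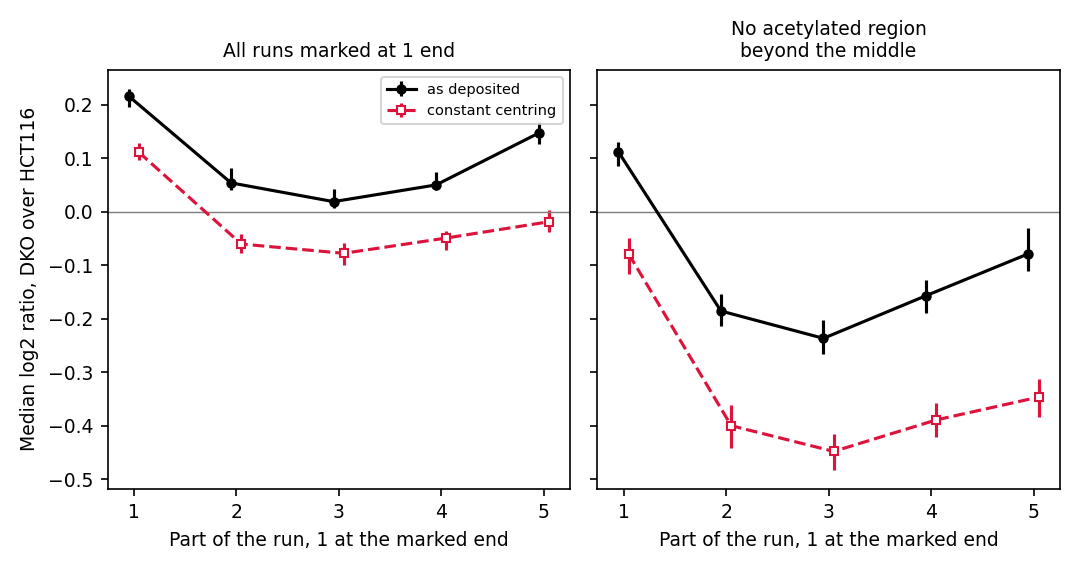
Median log2 ratio of DKO over HCT116 (y axis) in 5 equal parts of runs from the marked end (x axis), as deposited (circles) and under constant centring (squares), with 95% intervals over regions, for 2499 runs marked at 1 end (left) and 837 of them with no acetylated region beyond the middle (right). In both panels and under both scalings the first part is the highest and the middle part the lowest.

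The Pol2Ser2 ratio was nearly alike on both sides of CTCF regions inside runs. With runs oriented by their mark, the median difference of M within 10 kb beyond a CTCF region minus that within 10 kb before it was -0.02 at 2736 CTCF regions higher in DKO (quartiles -0.41 and 0.37), -0.02 at 4667 similar ones and -0.04 at 356 higher in HCT116 (interval -0.16 to 0.06).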

How the data were processed

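ChIP-seq libraries of DKO and HCT116 cells (16 samples, 1 per target and line, inputs not used here) were read as 7 deposited tables. Reads of 75 nt were aligned with BWA to hg19, per the submitters' processing notes. These notes list MACS2 as well, but not for total polymerase; the sources used here name neither their versions nor how multiply mapping reads were treated. The deposited densities (signal per kb), the log2 ratio M, the log2 mean A and the p-value are the authors' values, per the file headers. The p-value compares reads of 2 libraries and served only as a filter in 1 alternative.

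Reads were recovered from M and A (1 had been added to each count): 100% of values were whole within 0.05. Runs joined regions with gaps of at most 5 kb. Medians have order-statistic 95% intervals, single regions exact ones. PCR reads are not independent molecules, so intervals and floors of 3 reads cover counting error only. Named regions were the 5 highest and 5 lowest at or above the median density. Named runs were the 10 highest, 10 lowest, 5 longest and 5 deepest. Python 3.11.15, numpy 2.4.6, pandas 2.3.3 and scipy 1.17.1 were used, and read recovery was tested on simulated data. Groups, lists and alternatives were chosen with earlier results of these data known. Gene lists and gene bodies were not analysed here.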

Additional observations from a re-analysis of the deposited data

How the results depend on the processing

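No paired analysis was possible because each line has 1 library per target, so no replicate could be left out either. Gene bodies were not run. The scaling set the balance between the lines. Of regions past 2-fold, 63.1% were higher in DKO as deposited, but 39.3% under constant centring (28083 and 43305 regions higher in DKO and in HCT116), 50.7% after recentring on the median of the table and 51.2% after removing each chromosome's median. For regions called in both it was 48.7% (2400 and 2532). The deposited scale puts their median M at 0.01, so that near balance depends on the scaling. With a deposited p under 1e-05 the share was 71.5% (5065 and 2015), at or above the median density 70.3% (25702 and 10838), and without shared windows 62.5% (27294 and 16373). A 1.5-fold threshold gave 61.4% (77522 and 48722), and a 4-fold threshold 9300 and 5356 regions.

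For runs the share was 72.6%, and 49.8% under constant centring (1008 higher in HCT116), 59.9% after recentring, 60.2% after removing chromosome medians and 69.0% with gaps of 2 kb. Runs of at least 3 regions gave 2668 higher in DKO and 920 in HCT116, runs of at least 10 gave 610 and 291 (67.7%). A 1.5-fold threshold gave 2908 and 1269 (69.6%), a 4-fold threshold 341 and 103 (76.8%).

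Regions of 5 kb or more minus those under 0.5 kb had a median M difference of -0.40, which was 0.51 under constant centring and -0.22 for regions called in both. The highest density quartile minus the lowest was 0.05, which was 0.74 under constant centring and -0.019 without chromosome medians. Under constant centring the medians turned for regions under 0.5 kb (-0.14), of 5 to 10 kb (0.37) and of 10 kb or more (0.31), for density quartiles 1 (-0.53) and 2 (-0.22), and for the regions chr17:41399610-41401245 (1.10) and chr22:50958955-50971292 (1.07). Recentring turned regions under 0.5 kb (-0.0036), of 2 to 5 kb (-0.12), and quartiles 1 (-0.069) and 4 (-0.021). Without chromosome medians, regions of 2 to 5 kb (-0.14) and quartiles 1 (-0.025) and 4 (-0.044) turned. Among regions called in both, those under 0.5 kb (-0.019) and of 2 to 5 kb (-0.0089) turned.

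The difference in median M between regions on and off another target kept its sign in every alternative that could change it. Recentring on the median of the table cannot, since it shifts both groups alike. Under constant centring it was 0.44 for total polymerase, 0.38 for Pol2Ser5, 0.56 for H3K27Ac, 0.55 for CTCF, 0.52 for RAD21 and 0.54 for SMC1. Without chromosome medians it was 0.13, 0.11, 0.33, 0.33, 0.30 and 0.29 in that order. With at least 50% of the region shared it was 0.23 for total polymerase, 0.23 for Pol2Ser5, 0.35 for H3K27Ac and 0.34 for RAD21. Among the named runs, chr17:75275678-75503570 changed sign, from -0.07 as deposited to 0.02 under constant centring, and no other did under the scalings or with summed densities. The cause of these shifts, beyond the change of scaling, was not tested. Depth limits weak regions most: in the lowest quartile medians were 9 reads in DKO and 18 in HCT116.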
